A study of Mus musculus with 12 samples.

Results

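Multiple retained introns, runs of 2 or more neighbouring introns that are kept together in a transcript, were followed in mouse colon. In the authors' deposited event table each event of this kind has 2 forms. The ON form is the transcripts that keep the whole run of introns as part of a single exon, and the OFF form those of the same gene that splice all of them out. All rows of these 2 forms (677 ON and 1340 OFF rows) were taken and paired by gene and by event start and end, which gave 630 pairs in 495 genes, out of 19723 ON/OFF pairs of all event types in the table. No ON or OFF row lacked a partner. The choice used the event type alone and no measured value.

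The 12 libraries were made from colon of mice in 3 groups of 4 by their treatment label: FGF1, DSS and control. DSS is dextran sulfate sodium, a polymer that injures the colon lining and serves as a model of colitis, and FGF1 is fibroblast growth factor 1, which per the design text was supplied as a recombinant protein in bowel inflammation. Whether DSS was also given to the FGF1 group is not in the labels, nor are the dose, duration, strain, age or genotype of these 12 samples. Separate animals are not stated either, so p-values speak for the spread among these samples, which may be technical.

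Introns are removed from a nascent transcript by the spliceosome, which reads short signals at both ends of the intron. A transcript that keeps an intron is usually held in the nucleus or, once exported, destroyed by nonsense-mediated decay, because the intron tends to bring an early stop codon into the reading frame. Short, GC-rich introns are those most often found retained in mammals, and genes for splicing factors are known to use retained introns and other unproductive forms to tune their own output.

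The unit throughout is FPKM, the authors' estimate of fragments per kilobase of transcript, scaled to the size of the library. Retention is the FPKM of the ON transcripts divided by that of the ON and OFF transcripts together, each transcript taken once, in percent. It is a ratio of estimated levels of whole transcripts, not a count of reads over the introns, and the FPKM values carry no read counts, so the depth behind each value is unknown. A transcript not listed in a library was given 0. Because the tissue is bulk, fewer cells of a type and less RNA per cell cannot be told apart. The tissue label was checked against marker genes: all 7 epithelial and all 5 goblet cell markers were listed above 1 FPKM in at least 1 library, as were all 9 smooth muscle and all 6 fibroblast markers. Of 5 markers of other tissues 1, the pancreatic gene Prss2, stayed under 1 FPKM, while the liver gene Alb, the skeletal muscle gene Ckm, the elastase gene Cela1 and the red blood cell gene Hba-a1 passed it in at least 1 library. The mean log2(FPKM + 1) of these 5 markers ran from 2.38 to 2.87 in FGF1, 2.32 to 3.05 in DSS and 2.59 to 2.93 in control libraries. The mean log2(FPKM + 1) of the smooth muscle markers ran from 6.17 to 8.89 in FGF1, 5.20 to 7.03 in DSS and 7.42 to 9.12 in control libraries. That of the fibroblast markers ran from 3.39 to 4.86 in FGF1, 1.47 to 3.50 in DSS and 4.90 to 5.59 in control libraries. DSS 3 and DSS 4 listed the fewest transcripts, 45795 and 47597, against 50174 to 54313 in the other libraries.

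The retained runs were short, mostly inside coding sequence and almost always known to the annotation. In 621 pairs the exon that keeps the run was annotated for every ON transcript. The traits given here and in the next paragraph cover all 630 pairs, whatever their level. They therefore largely describe the forms that the annotation holds. In 546 of the 630 pairs (86.7%) every ON transcript was annotated in GENCODE as a retained-intron transcript, in 38 as a target of nonsense-mediated decay and in 29 as a processed transcript, while an ON transcript was annotated as protein coding in 7 pairs. For comparison, 78.0% of the 2866 pairs with a single retained intron had only retained-intron ON transcripts. The run lay within the coding part of an OFF transcript in 540 pairs (85.7%), in a UTR in 18 and across an end of the coding part in 25, and 47 pairs had no coding OFF transcript. Most runs held 2 introns (520 pairs) or 3 (84 pairs), 14 held 4, 6 held 5, 3 held 6 and 2 held 7, and the longest, in Large2, held 8. The pairs were not independent of each other: 582 ON transcripts served the 630 pairs, 100 genes had more than 1 pair and 1 gene had 6.

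The 630 pairs held 1260 distinct introns, of which 297 were also listed as single retained introns. Apart from 10 gaps under 30 bases, their median length was 235 bases, against 236 bases for the single retained introns and 1448 bases for all 223093 introns of protein-coding transcripts in the annotation. Introns under 300 bases made up 57.4% of them, against 56.9% of single retained introns and 17.0% of all introns. Their median GC content was 51.9% (52.5% for single retained introns). Of 1237 introns whose sequence could be read, 1216 (98.3%) began with GT and ended with AG, 18 with GC and AG, and 2 with AT and AC. Keeping the whole run added a median of 685.5 bases to the transcript, a multiple of 3 in 207 pairs (32.9%). Where the upstream reading frame was read on into the first intron of the run, an in-frame stop codon was met inside that intron in 458 of 534 pairs (85.8%), at a median of 36 bases.

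**Figure D1:**
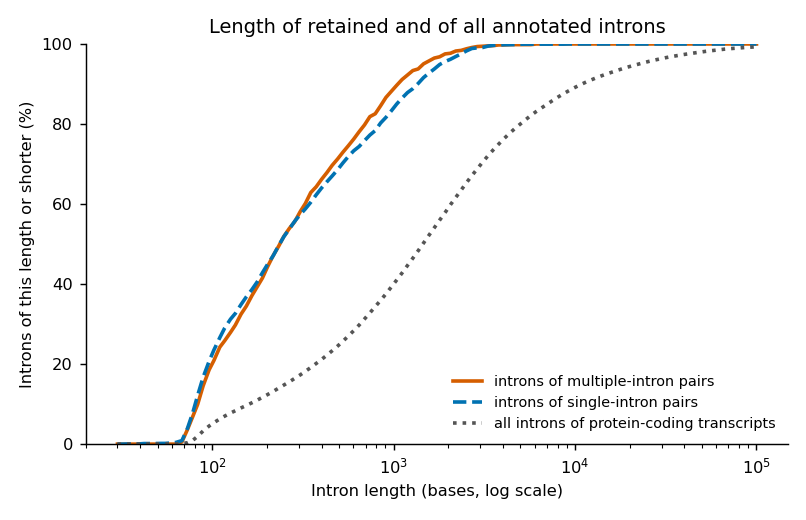
Cumulative share (%) of introns at or under each length (bases, log axis) for introns of multiple-intron pairs (solid), introns of single-intron pairs (dashed) and all introns of protein-coding transcripts in the annotation (dotted). The retained introns of both kinds lie on nearly the same curve, with medians of 235 and 236 bases, left of the curve of all introns with its median of 1448 bases.

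The introns below show what such runs look like, in GRCm38 coordinates and read from GENCODE vM21 transcript sequence, 5′ to 3′ on the strand of the gene. They belong to pairs within coding sequence whose introns are all short, and were chosen after their values were seen; none belongs to a pair that passed the test. Capitals mark the first and last 2 bases and, in a first intron where the frame of the coding sequence before it meets a stop codon, that stop. Tecr (minus strand), the enzyme of the last step of very-long-chain fatty acid elongation, and Dalrd3 (plus strand), which has a DALR anticodon-binding domain, are abundant pairs with compact introns and no in-frame stop in the first. Esrp2 (minus strand), an epithelial splicing regulator, meets a stop that overlaps the splice site itself.
Tecr intron 1 of the event, chr8:83573144-83573219: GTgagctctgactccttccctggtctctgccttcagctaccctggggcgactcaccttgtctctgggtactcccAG
Tecr intron 2 of the event, chr8:83572947-83573027: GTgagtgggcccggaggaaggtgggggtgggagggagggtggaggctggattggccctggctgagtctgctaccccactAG
Dalrd3 intron 1 of the event, chr9:108571865-108571940: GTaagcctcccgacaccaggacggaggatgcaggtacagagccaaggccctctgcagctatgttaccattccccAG
Dalrd3 intron 2 of the event, chr9:108572118-108572186: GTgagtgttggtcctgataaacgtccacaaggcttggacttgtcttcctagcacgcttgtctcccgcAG
Esrp2 intron 1 of the event, chr8:106133887-106133959: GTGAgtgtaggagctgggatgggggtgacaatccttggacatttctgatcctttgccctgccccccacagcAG
Esrp2 intron 2 of the event, chr8:106133706-106133778: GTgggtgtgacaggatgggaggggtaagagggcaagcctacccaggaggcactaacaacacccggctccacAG
Esrp2 intron 3 of the event, chr8:106133494-106133572: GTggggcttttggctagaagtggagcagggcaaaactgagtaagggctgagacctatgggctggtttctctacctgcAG

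The next 3 belong to pairs with small unadjusted p-values in the group comparisons below: Stab1 (minus strand), a scavenger receptor of macrophages and some endothelia, whose stop lies at the very end of the first intron; Abhd11 (plus strand), a mitochondrial hydrolase, with a stop that ends at base 39; and Polrmt (minus strand), the mitochondrial RNA polymerase, with no in-frame stop in the first intron.
Stab1 intron 1 of the event, chr14:31140076-31140147: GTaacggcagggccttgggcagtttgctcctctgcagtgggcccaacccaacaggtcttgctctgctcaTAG
Stab1 intron 2 of the event, chr14:31139849-31139925: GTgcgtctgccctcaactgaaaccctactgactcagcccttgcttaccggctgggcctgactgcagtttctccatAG
Stab1 intron 3 of the event, chr14:31139654-31139743: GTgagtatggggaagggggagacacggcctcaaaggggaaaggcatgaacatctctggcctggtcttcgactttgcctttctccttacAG
Abhd11 intron 1 of the event, chr5:135011061-135011209: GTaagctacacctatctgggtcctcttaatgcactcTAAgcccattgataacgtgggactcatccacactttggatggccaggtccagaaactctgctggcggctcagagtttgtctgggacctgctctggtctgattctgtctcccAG
Abhd11 intron 2 of the event, chr5:135011381-135011483: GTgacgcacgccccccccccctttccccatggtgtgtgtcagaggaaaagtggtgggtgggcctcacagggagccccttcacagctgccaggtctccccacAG
Polrmt intron 1 of the event, chr10:79737714-79737799: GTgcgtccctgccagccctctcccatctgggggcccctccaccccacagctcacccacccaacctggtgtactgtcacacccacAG
Polrmt intron 2 of the event, chr10:79737510-79737599: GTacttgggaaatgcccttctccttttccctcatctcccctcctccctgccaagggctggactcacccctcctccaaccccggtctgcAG
Polrmt intron 3 of the event, chr10:79737363-79737456: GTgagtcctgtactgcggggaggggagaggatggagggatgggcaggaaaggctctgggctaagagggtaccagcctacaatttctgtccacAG

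The 2 AT-AC introns, a class removed mostly by the minor spliceosome, were in Prim1, the catalytic subunit of DNA primase, and Tcea2, a transcription elongation factor, both on the plus strand. Their splice sites are shown with 3 exon bases, and capitals mark the terminal dinucleotides of the intron.
Prim1 donor site of the intron at chr10:128022973-128023582: agaATatcc
Prim1 acceptor site of the intron at chr10:128022973-128023582: gctccttaatgaagcatcACcaa
Tcea2 donor site of the intron at chr2:181686247-181686597: agtATatcc
Tcea2 acceptor site of the intron at chr2:181686247-181686597: gggtccttaaacacctgcACgca

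Retention took similar values in the 3 groups. In each library, over the pairs with ON plus OFF of at least 1 FPKM there (475 to 525 pairs), the median retention was 15.2, 15.3, 14.8 and 15.9% in FGF1, 17.0, 18.5, 12.9 and 12.7% in DSS and 11.3, 15.1, 16.7 and 15.4% in control. The group means were 15.3 ± 0.451% in FGF1, 15.3 ± 2.92% in DSS and 14.6 ± 2.33% in control (SD, n = 4 each). All 4 FGF1 values lay inside the range of both other groups. Within DSS, the low values came from DSS 3 and DSS 4, the libraries with the fewest listed transcripts. Control 1, with the lowest median of the 12 libraries (11.3%), listed 53038 transcripts. A link between retention and listed transcripts was not tested. The single retained introns had library medians of 14.4 to 15.3% in FGF1, 11.5 to 17.5% in DSS and 13.4 to 16.4% in control.

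**Figure D2:**
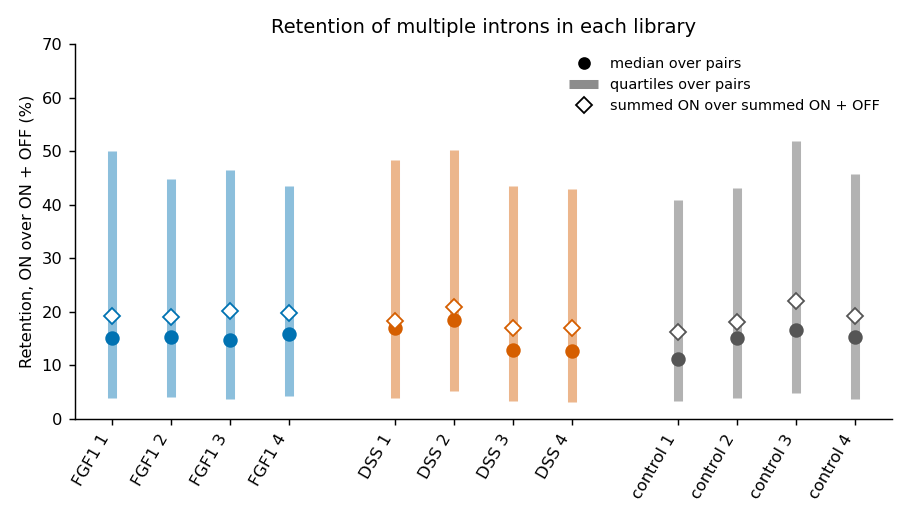
Retention (%) of the multiple-intron pairs in each of the 12 libraries, with the median over pairs (circles), the quartiles over pairs (bars) and the summed ON FPKM over summed ON and OFF FPKM (diamonds). The quartiles of every library overlap, and the medians of the 4 FGF1 libraries (14.8 to 15.9%) sit inside the ranges of DSS (12.7 to 18.5%) and control (11.3 to 16.7%).

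Pairs differed far more from each other than libraries did. Over the 423 pairs at 1 FPKM or more in all 12 libraries, the mean retention of a pair had an SD of 26.6 percentage points over pairs, whereas the median SD of a pair over the 12 libraries was 5.68 points. Mean retention was under 5% in 112 of these pairs, from 5 to 20% in 123, from 20 to 50% in 113, from 50 to 80% in 45 and at least 80% in 30. Over all 630 pairs, whatever their level, the ON form exceeded the OFF form in every library in 63 and stayed below it in every library in 305. Across the 423 pairs, the rank correlation of retention between libraries had a median of 0.860 within groups and 0.850 between groups. This is a description in which pairs are not independent and share libraries. Even so, 61 of the 423 pairs spanned more than 50 points over the 12 libraries, and 135 spanned less than 10.

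Low-level pairs had the higher retention. Of the 526 pairs tested (ON plus OFF of at least 1 FPKM in at least 4 libraries, in 417 genes), 194 had a mean under 5 FPKM, and their median retention was 32.0%. The median was 15.0% in the 233 pairs from 5 to 20 FPKM and 7.99% in the 99 at 20 FPKM or more. Across the 526 pairs retention had a rank correlation of -0.336 with the level of the pair, -0.087 with mean intron length, 0.114 with GC content and -0.0375 with the number of introns. The pair held a median of 74.3% of its gene's listed FPKM, and the ON form 9.74%. In 140 tested pairs it held under 50%, so that retention there speaks for a minority of the gene's RNA. The other 104 pairs did not reach the minimum level and were not tested.

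The pairs with the highest levels were, with exceptions given below, almost fully spliced. Rpl12, a protein of the large ribosomal subunit (chr2:32963066-32963741, plus strand), had OFF levels of 380.1, 380.4, 299 and 334 FPKM in FGF1, 394, 294, 514 and 369.6 FPKM in DSS and 243, 221, 315 and 269 FPKM in control. Its ON form had 1.25, 1.03, 0.982 and 0.714 FPKM in FGF1, 0.319, 1.07, 1.79 and 1.12 FPKM in DSS and 0.436, 0.981, 1.04 and 1.16 FPKM in control, and its retention stayed under 0.5% in all 12 libraries. Retention averaged 0.521 ± 0.0826% in FGF1, 0.539 ± 0.118% in DSS and 0.381 ± 0.181% in control in St14 (matriptase, a membrane protease of epithelia; SD, n = 4 each here and below). It averaged 1.42 ± 0.326% in FGF1, 1.58 ± 0.521% in DSS and 1.29 ± 0.285% in control in Ssr4, a subunit of the translocon-associated complex of the endoplasmic reticulum. In Prdx5, a peroxide-reducing enzyme, it was 1.76 ± 0.352% in FGF1, 1.65 ± 0.523% in DSS and 1.74 ± 0.408% in control. In Echs1, a mitochondrial enzyme of fatty acid oxidation, it was 2.75 ± 0.905% in FGF1, 1.70 ± 0.474% in DSS and 2.78 ± 2.96% in control. Cnbp, a nucleic-acid-binding zinc finger protein, was at 2.00 ± 1.16% in FGF1, 3.12 ± 3.29% in DSS and 1.62 ± 0.391% in control, with FGF1 4 and DSS 4 above the other libraries of their groups.

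Tecr (chr8:83572946-83573220, minus strand), whose 2 introns are printed above, kept more. Its retention was 8.002, 11.2, 10.9 and 6.49% in the FGF1 libraries, 10.8, 7.80, 10.3 and 8.07% in the DSS libraries and 6.39, 5.01, 10.3 and 8.47% in the control libraries, and the groups overlapped. Eif4a1, the RNA helicase of translation initiation, split in another way: its retention was 4.12, 4.92, 7.14 and 31.9% in the FGF1 libraries, 6.17, 3.20, 5.62 and 6.79% in the DSS libraries and 4.83, 26.1, 31.1 and 3.72% in the control libraries. Of the 12 libraries, 9 lay under 8%, and FGF1 4, control 2 and control 3 between 26.1 and 31.9%, so the split crossed the groups. Ceacam1, an adhesion molecule of colonocytes, was at 25.8 ± 4.16% in FGF1, 25.5 ± 9.07% in DSS and 23.3 ± 5.10% in control. Over the 12 libraries its ON form had 9.99 to 46.3 FPKM and its OFF form 44.5 to 105.4 FPKM. The whole gene was listed at 644.7 to 1338.6 FPKM, so this retention speaks for a minority of the gene's RNA.

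Gas5, a non-coding host gene of small nucleolar RNAs, had 2 tested pairs that start at the same base of chromosome 1 and share the ON form. Against the long OFF form (chr1:161036014-161037288, plus strand), retention was 0.832, 0.633, 0.858 and 0.627% in the FGF1 libraries, 0.856, 1.53, 0.743 and 0.750% in the DSS libraries and 1.19, 1.10, 1.53 and 1.13% in the control libraries. Against the short OFF form (chr1:161036014-161036820, plus strand), it was 11.5, 10.6, 10.5 and 5.02% in the FGF1 libraries, 100, 11.9, 17.9 and 8.42% in the DSS libraries and 90.2, 20.3, 91.2 and 100% in the control libraries. This pair held 4.53% of the gene's listed FPKM. The ON form itself had 1.305, 1.02, 1.04 and 0.807 FPKM in FGF1, 1.60, 1.23, 1.70 and 1.11 FPKM in DSS and 1.14, 0.985, 1.88 and 1.27 FPKM in control. The OFF form had 10.1, 8.62, 8.91 and 15.3 FPKM in FGF1, 0, 9.11, 7.75 and 12.1 FPKM in DSS and 0.123, 3.88, 0.180 and 0 FPKM in control, so the wide range came from the OFF form.

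The 8 pairs described next are those with a mean of at least 10 FPKM whose ON share, taken over the mean levels of all libraries, lay nearest 50%. In single libraries that share could be far from it. Dalrd3 (chr9:108571864-108572187, plus strand) had a retention of 45.5, 42.2, 48.7 and 54.7% in the FGF1 libraries, 36.2, 43.6, 37.3 and 55.01% in the DSS libraries and 53.6, 42.0, 45.2 and 41.7% in the control libraries. Arfgap1, which switches off a small GTPase of the Golgi, had 54.6, 47.9, 53.1 and 45.9% in the FGF1 libraries, 45.8, 50.3, 57.3 and 36.1% in the DSS libraries and 47.5, 51.8, 52.7 and 50.8% in the control libraries. In both, the groups overlapped. Cyp2d34, a cytochrome P450, was at 50.7 ± 6.21% in FGF1, 41.1 ± 2.80% in DSS and 49.9 ± 8.25% in control. Others of the 8 mixed high and low libraries. Atp13a1, a P-type ATPase of the endoplasmic reticulum, was at 74.7, 18.7, 75.8 and 74.0% in the FGF1 libraries, 63.8, 77.8, 0.0740 and 13.3% in the DSS libraries and 2.76, 67.1, 1.29 and 76.4% in the control libraries. Clcn2, a chloride channel of the colon epithelium, was at 69.2, 24.8, 67.5 and 61.1% in the FGF1 libraries, 53.9, 19.6, 62.1 and 57.6% in the DSS libraries and 18.3, 18.5, 67.2 and 65.9% in the control libraries. For both, low and high libraries occurred in every group. Nubp1, of iron-sulfur protein assembly, was at 53.9 ± 12.3% in FGF1, 37.0 ± 19.2% in DSS and 60.7 ± 8.60% in control. Rfng, which glycosylates Notch receptors, was at 56.8 ± 17.2% in FGF1, 47.5 ± 10.7% in DSS and 58.5 ± 21.7% in control, and the last of the 8, Lrrc45, is described below.

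The 8 genes described for their long runs, with 1 pair per gene and ties taken by level, were Large2 with 8 introns, Traf7 with 7, Psme1 and Smpd2 with 6, and Abtb1, Cenpt, Furin and Slc38a2 with 5. Sema6c also held a run of 5, but at 0.446 FPKM it was under the minimum for the test. Traf7, a ubiquitin ligase (chr17:24509867-24511776, minus strand; 1297 retained bases), kept all 7 introns in a steady share. Its retention was 11.4, 9.52, 12.5 and 11.6% in the FGF1 libraries, 11.4, 13.8, 12.04 and 13.8% in the DSS libraries and 9.24, 13.8, 9.06 and 7.38% in the control libraries, and those ranges overlapped. Retention was low in Slc38a2, an amino acid transporter, at 4.08 ± 0.540% in FGF1, 4.97 ± 1.38% in DSS and 3.99 ± 0.817% in control. In Psme1, a proteasome activator subunit, it was 2.63 ± 0.422% in FGF1, 2.37 ± 0.472% in DSS and 2.67 ± 1.18% in control. In Furin, a proprotein convertase, it was 2.12 ± 1.13% in FGF1, 1.51 ± 0.745% in DSS and 1.96 ± 0.818% in control. It was higher in Cenpt, a centromere protein, at 35.3 ± 7.61% in FGF1, 34.3 ± 7.65% in DSS and 29.0 ± 9.81% in control. Abtb1 was at 21.9 ± 3.59% in FGF1, 26.8 ± 16.1% in DSS and 29.2 ± 4.82% in control. Smpd2, a sphingomyelinase, was at 18.8 ± 11.6% in FGF1, 25.6 ± 16.5% in DSS and 14.9 ± 3.46% in control, and the groups overlapped in all 6 genes.

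Set between groups, no multiple-intron pair passed the test in any comparison. The log2 odds change is the difference between groups in log2(ON + 1) minus log2(OFF + 1), with FPKM in the brackets. With both forms well above 1 FPKM, a positive value means a higher ratio of ON to OFF in the group named first. It understates changes of low pairs, and where both forms are near or under 1 FPKM it follows the form that is larger. Where 1 form alone is that low, it mainly follows the other form. A change can therefore stand beside retentions that overlap throughout, as in Emilin1 below. It was tested with limma over all 15472 tested pairs of every event type, with Benjamini-Hochberg adjustment over all of them and a threshold of 0.05. The comparisons share libraries, so they are given side by side and not set against each other.

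For FGF1 against DSS, 0 of the 526 pairs were called, with 0.0% of all pairs called. An unadjusted p under 0.05 was reached by 27 pairs (5.13%; 6.85% of all pairs), and retention did not overlap between the groups in 16 pairs (3.04%), 6 higher and 10 lower in FGF1, against 4.07% of all pairs (1.87% higher, 2.2% lower). The median log2 odds change was -0.0085 over the 526 pairs and -0.0042 over all pairs. For FGF1 against control, 0 were called, again with 0.0% of all pairs called. An unadjusted p under 0.05 was reached by 35 pairs (6.65%; 6.72% of all pairs), and 34 pairs (6.46%) did not overlap, 23 higher and 11 lower in FGF1, against 4.8% of all pairs (2.55% higher, 2.26% lower). The median was 0.065, against 0.020 over all pairs. For DSS against control, 0 were called, where 32 of all 15472 pairs (0.207%) were. That count over all pairs was 0 without DSS 4 and 49 without DSS 1, from 3 to 42 without any other single library, and 0 with the smooth muscle score in the fit. An unadjusted p under 0.05 was reached by 55 pairs (10.5%; 12% of all pairs), and 35 pairs (6.65%) did not overlap, 27 higher and 8 lower in DSS, against 7.48% of all pairs (4.34% higher, 3.15% lower). The median was 0.043, against 0.023 over all pairs and 0.043 over the single retained introns.

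**Figure D3:**
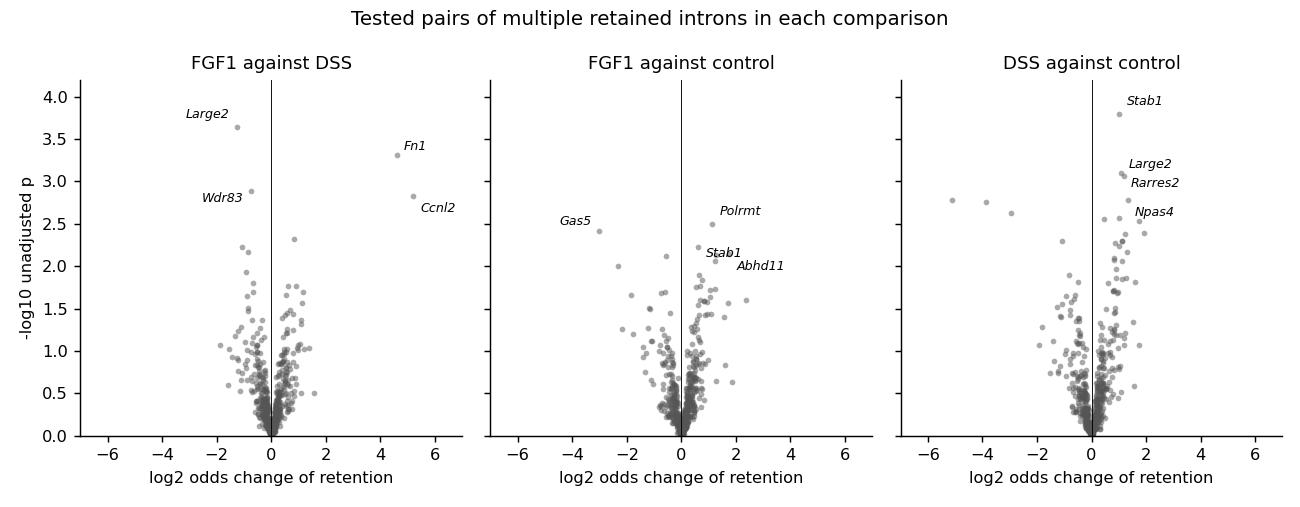
Each point is 1 of the 526 tested pairs, with its log2 odds change of retention (x axis) and -log10 of its unadjusted limma p (y axis), for FGF1 against DSS, FGF1 against control and DSS against control. None passed an adjusted p of 0.05, and the medians lie near 0 in all 3 panels (-0.0085, 0.065 and 0.043).

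The 12 genes with the smallest p in DSS against control are given as values, since none passed. In Stab1 (chr14:31139653-31140148, minus strand) the ON form had 0.000563, 0.125, 0.171 and 0.251 FPKM in FGF1, 0.327, 0.0796, 0.0167 and 0.246 FPKM in DSS and 0.192, 0.195, 0.219 and 0.531 FPKM in control. The OFF form had 0.185, 0.562, 0.493 and 1.23 FPKM in FGF1, 0.608, 0.115, 0.0574 and 0.190 FPKM in DSS and 1.70, 1.60, 1.54 and 2.14 FPKM in control. Retention was 0.303, 18.3, 25.8 and 16.9% in the FGF1 libraries, 34.9, 41.0, 22.5 and 56.4% in the DSS libraries and 10.2, 10.9, 12.4 and 19.9% in the control libraries. DSS lay above control without overlap, and FGF1 overlapped both. The log2 odds change was 1.02 ± 0.18 (SE), with an adjusted p of 0.0537, and all forms were low. Without the filter on low values its adjusted p was 0.0317, without a mean-variance trend 0.0409, and over all alternatives it ran from 0.0317 to 0.492. The gene as a whole fell in DSS (log2 change -1.58 ± 0.27, adjusted p = 0.00484), as the OFF levels show. The mean log2(FPKM + 1) of 4 endothelial markers ran from 1.69 to 2.46 in FGF1, 0.764 to 2.09 in DSS and 2.78 to 3.09 in control. That of 7 immune markers ran from 1.78 to 2.86 in FGF1, 1.43 to 1.99 in DSS and 2.99 to 3.80 in control. Their part in this was not tested.

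Rarres2, which encodes the chemoattractant chemerin (chr6:48570059-48572088, minus strand), had ON levels of 3.23, 2.75, 3.93 and 3.04 FPKM in FGF1, 3.63, 2.88, 2.13 and 1.78 FPKM in DSS and 4.34, 5.14, 6.17 and 6.10 FPKM in control. Its OFF levels were 17.8, 14.0, 30.2 and 19.3 FPKM in FGF1, 12.1, 14.6, 5.37 and 5.23 FPKM in DSS and 44.3, 34.2, 34.6 and 38.8 FPKM in control. Its retention was 15.3, 16.4, 11.5 and 13.6% in the FGF1 libraries, 23.1, 16.5, 28.4 and 25.4% in the DSS libraries and 8.92, 13.1, 15.1 and 13.6% in the control libraries, with DSS above control in every library. The adjusted p was 0.104 for a log2 odds change of 1.18 ± 0.26. Summed over the gene, Rarres2 fell in DSS (log2 change -1.90 ± 0.31, adjusted p = 0.00455). Emilin1, a glycoprotein of elastic fibres, had retentions of 6.25, 3.81, 3.28 and 4.19% in the FGF1 libraries, 2.35, 5.36, 6.44 and 5.05% in the DSS libraries and 1.85, 3.56, 6.92 and 5.87% in the control libraries, which overlapped throughout. Its log2 odds change of 1.24 ± 0.35 (adjusted p = 0.190) went with a gene that fell in DSS (log2 change -2.01 ± 0.39, adjusted p = 0.00895). Emilin1 and fibronectin are matrix proteins of stromal cells, and the fibroblast marker level given above was lower in every DSS library (1.47 to 3.50) than in any control library (4.90 to 5.59). Its part in these values was not tested.

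Fn1, fibronectin (chr1:71597387-71598374, minus strand), had its ON form at 35.6, 30.7, 79.0 and 18.7 FPKM in FGF1, 0.00961, 0.0567, 0.0374 and 0 FPKM in DSS and 21.2, 0.0245, 64.7 and 39.3 FPKM in control, while the OFF form stayed under 3 FPKM in all libraries. The ON form was thus near 0 in all 4 DSS libraries and in control 2, and at 18.7 FPKM or more in the other 7. Retention was 99.2, 98.2, 96.5 and 99.5% in the FGF1 libraries, 12.9, 63.6, 6.27 and 0% in the DSS libraries and 99.3, 35.8, 99.3 and 99.6% in the control libraries. The pair held 76.5% of the gene's listed FPKM on average, but in the 4 DSS libraries and control 2 both forms together were under 1 FPKM, where the whole gene was listed at 10.3, 6.56, 5.62 and 0.9345 FPKM in DSS 1 to 4 and 13.75 FPKM in control 2. Retention there rests on very low levels. For DSS against control the log2 odds change was -3.87 ± 0.95 (adjusted p = 0.138), and for FGF1 against DSS 4.59 ± 0.95 (adjusted p = 0.260). Control 2 decided both calls: without it the adjusted p was 0.000141 for DSS against control and 0.000189 for FGF1 against DSS, where the fit to these 2 groups alone also gave 0.00028. Over the alternatives the ranges were 0.000141 to 0.711 and 0.000189 to 0.664. The gene fell in DSS against control (log2 change -2.61 ± 0.63, adjusted p = 0.0219). It missed the threshold when DSS 3, DSS 4, control 3 or control 4 was left out singly, with adjusted p of 0.0535 to 0.0635. With the smooth muscle score in the fit the gene-level changes were -1.71 ± 0.37 for Stab1 (adjusted p = 0.0681), -1.27 ± 0.33 for Rarres2 (0.106), -0.92 ± 0.26 for Emilin1 (0.124) and -0.75 ± 0.32 for Fn1 (0.303), so none of the 4 passed. Without DSS 3 and DSS 4, Rarres2 alone of the 4 passed, and the others had adjusted p of 0.0683, 0.117 and 0.177 (Stab1, Emilin1 and Fn1).

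Ccnl2, cyclin L2, a partner of cyclin-dependent kinases in splicing (chr4:155817987-155820329, plus strand), had its ON form at 11.5, 11.1, 10.8 and 14.7 FPKM in FGF1, 5.28, 7.79, 10.3 and 4.98 FPKM in DSS and 8.72, 9.46, 14.0 and 13.6 FPKM in control. The OFF form was listed at 0 in all FGF1 libraries, at 69.0, 52.1, 0 and 64.3 FPKM in DSS and at 0 in all control libraries, so no fold is given. DSS 3 thus stood with the FGF1 and control libraries, at 100% retention, against 7.11, 13.0 and 7.19% in the other DSS libraries. The adjusted p was 0.136 for DSS against control and 0.332 for FGF1 against DSS. Without DSS 3 it was 1.84e-06 and 1.62e-06, and without DSS 3 and DSS 4 it was 3.35e-05 and 3.00e-05, in ranges of up to 0.595 and 0.694 over the alternatives. The ON form of DSS 1, 2 and 4, at 4.98 to 7.79 FPKM, was also below that of every other library, at 8.72 FPKM or more. The pair held 40.0% of the gene's listed FPKM on average, so 100% retention covers only part of the gene's output: in control 1 the ON form had 8.72 of 52.15 FPKM.

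Large2, a glycosyltransferase that acts on dystroglycan (chr2:92367176-92370563, minus strand), gave another listing pattern across its 8 introns. Its OFF form had 1.57, 1.03, 2.24 and 1.03 FPKM in FGF1, was listed at 0 in all 4 DSS libraries and had 1.26, 0.976, 1.67 and 1.02 FPKM in control. The ON form had 0.761, 0.0994, 0.305 and 0.520 FPKM in FGF1, 0.597, 0.435, 0.351 and 0.212 FPKM in DSS and 0.286, 0.230, 0.639 and 0.740 FPKM in control. Retention was therefore 32.7, 8.81, 11.98 and 33.6% in FGF1, 100% in all DSS libraries and 18.6, 19.1, 27.7 and 42.1% in control. The pair held 27.5% of the gene's listed FPKM, and the gene's own log2 change in DSS against control was 0.07 ± 0.14, adjusted p = 0.818. The adjusted p of the odds change was 0.239 for FGF1 against DSS and 0.103 for DSS against control. With retention in percent as the tested value it was 0.0205 and 0.0195, in ranges of up to 0.695 and 0.595 over the alternatives.

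**Figure D4:**
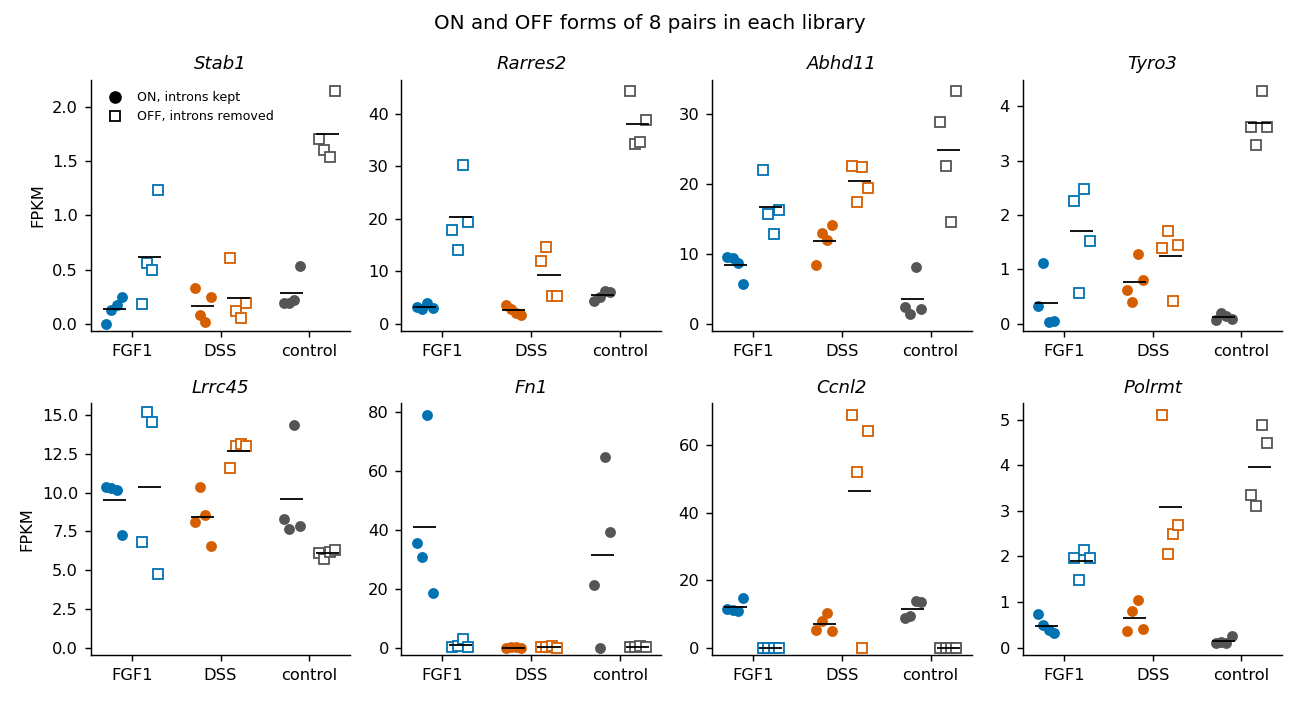
FPKM of the ON form (filled circles) and the OFF form (open squares) of 8 pairs in each library, by group, with the group mean (line); each panel has its own scale. The spliced form of Stab1, Rarres2 and Tyro3 is highest in the control libraries, the ON form of Fn1 is near 0 in the 4 DSS libraries and control 2, and the spliced form of Ccnl2 is listed only in 3 DSS libraries.

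The remaining genes of DSS against control were as follows. Tyro3, a receptor tyrosine kinase that binds signals of dying cells, had retentions of 12.9, 66.1, 1.59 and 3.65% in the FGF1 libraries, 30.7, 18.9, 75.5 and 35.8% in the DSS libraries and 1.78, 5.78, 3.18 and 2.60% in the control libraries. DSS lay above control in every library and FGF1 spanned both, with a log2 odds change of 1.74 ± 0.46 and an adjusted p of 0.165. Lrrc45, a centrosomal protein, went the other way with 60.4, 40.3, 41.2 and 60.6% in the FGF1 libraries, 41.2, 44.4, 39.3 and 33.5% in the DSS libraries and 57.8, 57.1, 69.9 and 55.6% in the control libraries. DSS lay below control without overlap (-1.09 ± 0.31, adjusted p = 0.202), and the FGF1 libraries divided between the levels of DSS and control. Abhd11 (chr5:135011060-135011484, plus strand) had 30.4, 37.5, 40.5 and 25.8% in the FGF1 libraries, 27.2, 42.6, 35.0 and 42.0% in the DSS libraries and 7.86, 5.65, 35.9 and 5.86% in the control libraries. Control 3 alone stood at the level of the other groups, and without it the adjusted p was 0.0243 for DSS against control and 0.037 for FGF1 against control, in place of 0.187 and 0.649. Without control 3 and FGF1 3 it was 0.0304 for DSS against control, and over the alternatives the ranges were 0.0243 to 0.563 and 0.037 to 0.939.

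Tbl1x, part of a nuclear corepressor complex, had 1.88, 1.64, 1.20 and 1.46% in the FGF1 libraries, 3.09, 1.40, 1.56 and 1.38% in the DSS libraries and 1.21, 1.11, 1.09 and 1.12% in the control libraries. DSS lay above control without overlap, on low retention everywhere, with an adjusted p of 0.159. Eif5, which triggers GTP hydrolysis in the initiating ribosome, had 0, 2.70, 0.899 and 0.536% in the FGF1 libraries, 2.33, 1.23, 0.535 and 0.412% in the DSS libraries and 0.950, 32.4, 18.5 and 20.9% in the control libraries. It was low in all FGF1 and DSS libraries and in control 1, and at 18.5% or more in the other control libraries, with an adjusted p of 0.153 for DSS against control. In control 2, at 32.4%, the ON form had 0.643 FPKM and the OFF form 1.34 FPKM, where the whole gene was listed at 32.1 FPKM. In DSS 1, at 2.33%, the ON form had 0.585 FPKM and the OFF form 24.6 FPKM. Between these 2 libraries the difference thus lay in the OFF form. Npas4, a transcription factor induced by neuronal activity, had 16.1, 27.8, 5.64 and 0% in the FGF1 libraries, 88.1, 0, 100 and 100% in the DSS libraries and 22.4, 5.97, 1.08 and 9.32% in the control libraries. Its levels were at most 2.08 FPKM, and the adjusted p was 0.136. In DSS the value of 0 came from DSS 2 alone.

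The 12 genes with the smallest p in FGF1 against DSS included Large2, Fn1, Ccnl2, Npas4 and Rarres2, given above. Wdr83, a WD-repeat scaffold protein (chr8:85079707-85080120, minus strand), had retentions of 14.4, 14.1, 11.1 and 12.1% in the FGF1 libraries, 20.3, 25.4, 21.4 and 20.4% in the DSS libraries and 12.3, 13.8, 20.8 and 21.8% in the control libraries. FGF1 lay below DSS in every library, and control ran over both levels. The log2 odds change was -0.75 ± 0.18, with an adjusted p of 0.332. Its OFF form had 8.51, 8.12, 6.78 and 6.95 FPKM in FGF1, 5.02, 3.21, 5.36 and 3.31 FPKM in DSS and 4.09, 3.70, 3.79 and 3.65 FPKM in control, highest in FGF1. Rnf214, a RING finger protein, had 34.4, 17.8, 23.7 and 35.3% in the FGF1 libraries, 68.4, 69.4, 48.6 and 54.0% in the DSS libraries and 40.4, 42.6, 46.6 and 20.7% in the control libraries. Smox, spermine oxidase, had 36.6, 29.1, 42.2 and 39.1% in the FGF1 libraries, 55.2, 65.2, 43.4 and 48.8% in the DSS libraries and 38.0, 52.2, 56.3 and 47.6% in the control libraries. In both, FGF1 lay below DSS without overlap and control overlapped at least 1 of them, with adjusted p of 0.572 and 0.599.

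The last 4 had higher means in FGF1 than in DSS, with overlap. Cers4, a ceramide synthase, was at 39.7 ± 9.03% in FGF1, 22.1 ± 6.86% in DSS and 31.9 ± 4.54% in control (adjusted p = 0.476). Haghl was at 33.7 ± 5.44% in FGF1, 23.5 ± 5.05% in DSS and 30.9 ± 3.89% in control (adjusted p = 0.605). Sharpin, a subunit of the linear ubiquitin ligase that signals in inflammation, was at 63.8, 71.8, 57.7 and 62.4% in the FGF1 libraries, 58.5, 15.8, 52.5 and 39.8% in the DSS libraries and 58.1, 64.1, 63.7 and 63.9% in the control libraries (adjusted p = 0.627). FGF1 and control shared a level, with DSS 1 inside it and the other DSS libraries below it. Gdpd2, a glycerophosphodiester phosphodiesterase, was at 17.2 ± 12.6% in FGF1, 8.40 ± 2.14% in DSS and 12.3 ± 6.05% in control, with an adjusted p of 0.605.

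In FGF1 against control the smallest p belonged to Polrmt (chr10:79737362-79737800, minus strand), whose 3 introns are printed above. Its retention was 26.9, 24.8, 15.2 and 14.0% in the FGF1 libraries, 6.78, 28.0, 29.6 and 13.2% in the DSS libraries and 2.86, 3.48, 2.11 and 5.21% in the control libraries. Every FGF1 library, and every DSS library, lay above every control library, with a log2 odds change of 1.14 ± 0.30 in FGF1 against control (adjusted p = 0.580) and 0.83 ± 0.30 in DSS against control (adjusted p = 0.297). The ON form had 0.727, 0.492, 0.383 and 0.319 FPKM in FGF1, 0.371, 0.800, 1.05 and 0.411 FPKM in DSS and 0.0983, 0.112, 0.105 and 0.247 FPKM in control. By these levels and the retentions, the OFF form was lower in every FGF1 library than in any control library. The odds change of FGF1 against control therefore holds a lower OFF form as well as a higher ON form. The gene's own log2 change in FGF1 against control was 0.00 ± 0.11, adjusted p = 0.990. Ndufaf3, an assembly factor of respiratory complex I, had 34.5, 37.3, 38.9 and 39.5% in the FGF1 libraries, 32.9, 37.3, 24.1 and 30.6% in the DSS libraries and 25.4, 27.6, 24.8 and 30.9% in the control libraries. FGF1 lay above control in every library and DSS overlapped both (FGF1 against control 0.55 ± 0.20, adjusted p = 0.693).

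Ppp1r16a, a regulatory subunit of a protein phosphatase, had 20.01, 20.1, 28.4 and 21.6% in the FGF1 libraries, 22.6, 24.1, 16.9 and 18.9% in the DSS libraries and 13.5, 17.1, 10.7 and 12.8% in the control libraries. FGF1 again lay above control without overlap (0.64 ± 0.22, adjusted p = 0.689). The short pair of Gas5, with its values above, was lower in FGF1 than in control without overlap (-3.02 ± 0.83, adjusted p = 0.603). Slc27a3, an acyl-CoA synthetase, was at 66.8 ± 16.6% in FGF1, 48.3 ± 28.8% in DSS and 20.9 ± 25.4% in control (adjusted p = 0.659). Exosc8, a core subunit of the RNA exosome, was at 25.9 ± 15.3% in FGF1, 21.6 ± 2.15% in DSS and 10.9 ± 5.25% in control (adjusted p = 0.693). Ltbp3, which binds latent TGF-beta, was at 19.7 ± 17.3% in FGF1, 10.8 ± 13.8% in DSS and 11.02 ± 4.90% in control (adjusted p = 0.693). Akap8, a nuclear anchor of protein kinase A, was at 5.20 ± 1.75% in FGF1, 5.75 ± 1.42% in DSS and 9.21 ± 5.36% in control (adjusted p = 0.693). FGF1 and control overlapped in all 4 of these genes. Stab1, Abhd11, Wdr83 and Eif5 completed the 12, with adjusted p of 0.633, 0.649, 0.659 and 0.673.

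Of the gene lists looked at, the list of SR proteins and splicing kinases had the largest share of genes with a multiple-intron pair. Of the 37 genes on this list, 12 (32.4%) had at least 1 such pair: Ccnl1, Ccnl2, Clk1, Clk2, Clk3, Nktr, Rsrp1, Srpk3, Srsf3, Srsf5, Srsf6 and Srsf7. Ccnl1 and Ccnl2 are cyclins and Nktr is a cyclophilin, so the list is broader than its name. The pair of Srpk3 and 1 pair of U2af1l4 did not reach the minimum level for the test. At least 1 pair was also found in 7 of 59 hnRNPs and other splicing regulators (11.9%), 8 of 77 core spliceosome genes (10.4%) and 2 of 37 genes of mRNA decay and export (5.41%). The share was 2.21% of all 22377 listed genes and 3.51% of the 12578 genes at 1 FPKM or more in at least 4 libraries. Among goblet and mucus genes 1 of 28 had a pair (Muc4), among colonocyte genes 1 of 48 (Ceacam1), among smooth muscle, fibroblast and matrix genes 1 of 45 (Fn1) and among immune and interferon genes 2 of 46 (Casp1 and Tap1). The lists are selections, made with earlier results of these data known. Exosc8, Emilin1 and Ltbp3 have tested pairs but are on none of the lists, so the shares hold for the listed genes only. The median number of listed transcripts per gene was 8 in the SR and kinase list, 9 in the hnRNP and regulator list, 4 in the core spliceosome list and 5 in the decay and export list, against 4 over the genes at 1 FPKM and 7 over all genes with a pair. The part of this in the counts was not tested.

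The retention of the splicing genes' pairs covered the whole range. Among the CLK kinases, which phosphorylate SR proteins, Clk3 (chr9:57758350-57760824, minus strand) was at 75.7, 70.9, 70.9 and 62.0% in the FGF1 libraries, 66.5, 70.4, 59.1 and 78.1% in the DSS libraries and 73.4, 72.4, 71.0 and 70.8% in the control libraries. Clk2 was at 61.0 ± 6.96% in FGF1, 61.6 ± 9.57% in DSS and 54.5 ± 6.09% in control. Clk1 was at 22.8 ± 2.70% in FGF1, 17.2 ± 9.08% in DSS and 17.8 ± 1.25% in control. The groups overlapped in all 3 genes. Rsrp1, an arginine- and serine-rich protein, was nearly all ON against both its OFF forms. Retention was 99.5 ± 0.594% in FGF1, 98.9 ± 0.853% in DSS and 98.9 ± 1.32% in control for the run of 1257 retained bases. It was 92.5 ± 3.77% in FGF1, 93.1 ± 3.15% in DSS and 94.2 ± 6.48% in control for that of 548. Ccnl1, cyclin L1, was at 96.6 ± 2.04% in FGF1, 93.8 ± 2.52% in DSS and 96.7 ± 2.69% in control and its pair held 30.3% of the gene's listed FPKM.

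Among the SR proteins, which bind exonic enhancers, Srsf3 (chr17:29038624-29041207, plus strand) was at 8.86, 14.4, 9.34 and 12.6% in the FGF1 libraries, 9.97, 13.6, 11.97 and 10.3% in the DSS libraries and 7.73, 11.1, 14.9 and 9.42% in the control libraries. Srsf5 was at 6.55 ± 2.41% in FGF1, 6.06 ± 2.81% in DSS and 5.72 ± 1.33% in control. Srsf7 was at 71.7 ± 7.45% in FGF1, 58.4 ± 10.3% in DSS and 63.9 ± 8.96% in control on a pair with 7.08% of the gene's listed FPKM. Srsf6 (chr2:162932142-162933426, plus strand) spread widely, at 71.3, 46.8, 43.6 and 93.6% in the FGF1 libraries, 58.1, 50.8, 96.4 and 83.0% in the DSS libraries and 86.1, 83.5, 87.7 and 88.8% in the control libraries. The control libraries lay between 83.5 and 88.8%, while FGF1 ran from 43.6 to 93.6% and DSS from 50.8 to 96.4%. Its adjusted p was 0.822 for DSS against control and 0.866 for FGF1 against control. Nktr, a cyclophilin with an arginine- and serine-rich domain, was at 1.54 ± 0.999% in FGF1, 2.88 ± 1.54% in DSS and 1.91 ± 1.39% in control.

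Among the regulators, Hnrnph1 was at 69.8 ± 11.2% in FGF1, 73.5 ± 14.6% in DSS and 76.6 ± 10.1% in control. Rbm5 was at 71.5 ± 8.71% in FGF1, 74.6 ± 10.8% in DSS and 76.4 ± 16.9% in control. Tial1 was at 96.7 ± 1.23% in FGF1, 96.5 ± 4.88% in DSS and 98.5 ± 1.29% in control, nearly all ON. Rbm3, a cold-inducible RNA-binding protein, was at 40.8 ± 13.2% in FGF1, 64.8 ± 24.2% in DSS and 46.5 ± 15.0% in control. Tia1 was highest in FGF1 3 and control 3, at 18.5, 5.48, 81.0 and 5.05% in the FGF1 libraries, 6.81, 10.8, 23.2 and 1.83% in the DSS libraries and 6.86, 6.48, 39.4 and 2.80% in the control libraries. Esrp2, whose 3 introns are printed above, was at 4.76 ± 0.694% in FGF1, 4.81 ± 1.84% in DSS and 4.50 ± 0.688% in control.

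In the core spliceosome, Bcas2 of the spliceosome activation complex (chr3:103174501-103177339, plus strand) was at 34.2, 36.5, 36.4 and 36.0% in the FGF1 libraries, 31.4, 24.8, 28.4 and 29.1% in the DSS libraries and 17.9, 33, 28.7 and 30.2% in the control libraries. FGF1 lay above DSS and control in every library, but the odds change was 0.41 ± 0.21 against DSS (adjusted p = 0.761) and 0.45 ± 0.21 against control (adjusted p = 0.746). Sf3b1, which holds the branch point, was at 95.0 ± 5.86% in FGF1, 90.4 ± 6.77% in DSS and 93.6 ± 7.603% in control, on 7.63% of its gene's listed FPKM. Prpf39 was at 85.7 ± 20.1% in FGF1, 73.1 ± 24.7% in DSS and 85.7 ± 24.4% in control. Snrpa1, a protein of the spliceosomal U2 particle, was at 12.1 ± 3.31% in FGF1, 10.3 ± 2.18% in DSS and 13.8 ± 3.77% in control. U2af1l4 was at 10.8 ± 4.15% in FGF1, 8.27 ± 4.26% in DSS and 15.6 ± 12.6% in control. Prpf40b was at 13.8 ± 19.8% in FGF1, 3.69 ± 1.84% in DSS and 5.46 ± 3.76% in control. Ddx23, a helicase of the spliceosome, had 2 pairs. One was at 3.16 ± 0.755% in FGF1, 4.19 ± 1.296% in DSS and 3.69 ± 1.08% in control, the other at 4.42 ± 1.00% in FGF1, 4.64 ± 3.49% in DSS and 5.16 ± 1.52% in control. Xab2 split across the groups, with its run of 3 introns at 3.78, 2.29, 43.2 and 32.0% in the FGF1 libraries, 26.2, 46.3, 7.10 and 5.10% in the DSS libraries and 2.50, 26.1, 44.0 and 31.2% in the control libraries. Of the decay and export genes, Thoc1 of the THO export complex, on chromosome 18, was at 22.3, 25.9, 28.2 and 22.6% in the FGF1 libraries, 17.6, 33.5, 25.3 and 25.4% in the DSS libraries and 17.5, 16.0, 18.6 and 20.1% in the control libraries. FGF1 lay above control in every library (adjusted p = 0.851). Xrn1, the cytoplasmic exonuclease, was at 0.821 ± 0.615% in FGF1, 0.415 ± 0.172% in DSS and 2.79 ± 4.11% in control.

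**Figure D5:**
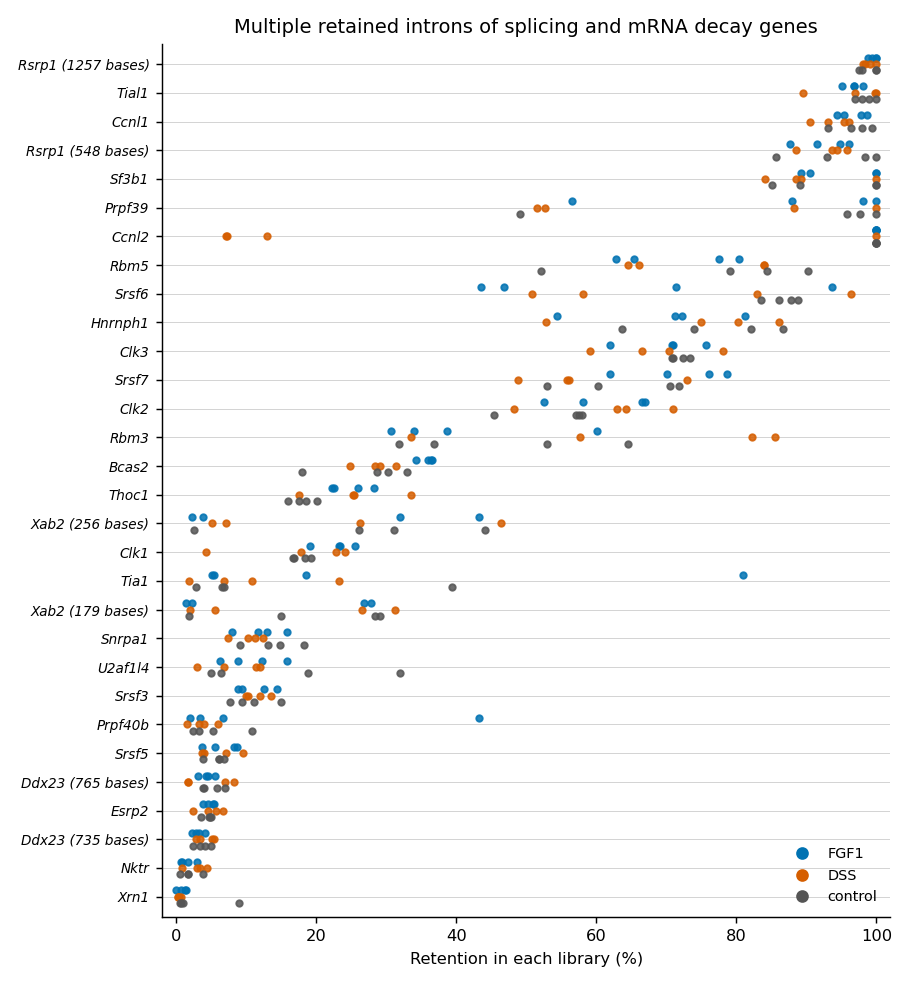
Retention (%) of tested multiple-intron pairs of splicing and mRNA decay genes in each of the 12 libraries, 1 point per library, coloured by group (FGF1, DSS, control) and sorted by level. The pairs run from near 0 in Xrn1 and Nktr to near 100% in Rsrp1, and the 3 groups overlap in most of them. Ccnl2, Srsf6, Rbm3 and Xab2 are among those that spread widely over the libraries.

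The levels of the splicing genes themselves were compared with limma on log2(gene FPKM + 1), where a gene's FPKM is the sum of its listed transcripts. Of 205 tested genes of the 4 lists, 6 were called in DSS against control, 2 higher and 4 lower, against 12.3% of all 12578 tested genes (2.23% higher and 10.1% lower). The median log2 change of the 205 was -0.016, and that of all genes -0.071. With median-of-ratios scaling, under which the median of all genes was 0.013, 14 were called, 11 higher and 3 lower, against 4.24% higher and 8.45% lower of the 12548 genes tested there. Limma called 0 in FGF1 against DSS, with 0.0557% of all genes called (0.0398% higher, 0.0159% lower). It called 0 in FGF1 against control, with 0.0795% of all genes called (0.00795% higher, 0.0716% lower). An unadjusted p under 0.05 was reached there by 9 and 17 of the 205 (4.39 and 8.29%, against 12.4 and 13.9% of all genes), and the medians were 0.021 and -0.0071.

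Srsf5 rose to 194 ± 27.4 FPKM in DSS, against 134 ± 11.5 FPKM in control (0.52 ± 0.11 (SE), adjusted p = 0.0125; SD, n = 4 each), while no change of its pair was called. Rbm3 was higher at 176 ± 95.9 FPKM in DSS, against 64.6 ± 4.08 FPKM in control (1.25 ± 0.34 (SE), adjusted p = 0.0324). The other 4 called genes, which have no multiple-intron pair, fell. Qk, a splicing regulator of muscle and glia, was at 0.845 ± 0.415 FPKM in DSS, against 4.03 ± 1.02 FPKM in control (-1.45 ± 0.20 (SE), adjusted p = 0.00317). Celf2, of the CELF family of splicing regulators, was at 0.688 ± 0.249 FPKM in DSS, against 1.85 ± 0.260 FPKM in control (-0.76 ± 0.16 (SE), adjusted p = 0.0115). The SR protein kinase Srpk2 was at 2.99 ± 0.749 FPKM in DSS, against 4.99 ± 1.07 FPKM in control (-0.59 ± 0.17 (SE), adjusted p = 0.0433), and the cap-binding subunit Ncbp2 at 13.9 ± 1.29 FPKM in DSS, against 18.4 ± 2.34 FPKM in control (-0.38 ± 0.11 (SE), adjusted p = 0.0461). Qk, Celf2 and Srsf5 passed when any 1 library was left out, but when the smooth muscle score entered the fit the changes were -0.9991 ± 0.18, -0.77 ± 0.22 and 0.55 ± 0.15 (SE) and the adjusted p 0.0583, 0.124 and 0.123, and without DSS 3 and DSS 4 Celf2 was at 0.0683 and Srsf5 at 0.104. Rbm3 did not pass without DSS 1, DSS 3 or any 1 control library (adjusted p 0.0576 to 0.0967). Srpk2 did not pass without DSS 2, 3 or 4, FGF1 1 or 2, or control 2, 3 or 4 (0.0575 to 0.117). Ncbp2 passed only without FGF1 3 or FGF1 4 and otherwise reached 0.0517 to 0.120. The count of 6 became 3 without control 2, control 4 or DSS 3, and 14 without DSS 1, of which 1 was higher and 13 lower.

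Over the 417 genes with a tested multiple-intron pair, 38 were called at gene level in DSS against control, 11 higher and 27 lower (9.11%, against 12.3% of all genes tested). In the other comparisons 0 were called, where 43 (10.3%, against 12.4% of all genes) in FGF1 against DSS and 52 (12.5%, against 13.9%) in FGF1 against control had an unadjusted p under 0.05. Their median log2 change was -0.029 in DSS against control, where that of all genes was -0.071.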

How the data were processed

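RNA of colon from 12 mouse samples was sequenced. Per the labels' protocols, libraries came from oligo(dT)-selected RNA (5 µg input). The tools named by the authors, per the submitters' processing notes, are StringTie 1.3.4d, HISAT2 2.0.4, cutadapt 1.9 and edgeR (no version given), and the build is GRCm38. What each tool did is not stated. The authors deposited, for each library, transcript structure events with the FPKM of the transcript that carries each one. The depth per sample is unknown, since FPKM holds no counts. All 12 columns of per-sample values were used, leaving 0 unused.

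From these, each transcript's FPKM was taken once per library (a transcript not listed is 0), summed over the ON and over the OFF transcripts of each pair, and divided to give retention. Event starts and ends are the flanking exon bases. Of 24204 event-row values of these pairs 5374 were 0, and 1111 of those belonged to a transcript listed above 0 elsewhere in that library, so transcript values were used. Introns, coding positions and sequences came from the GENCODE vM21 annotation and transcripts of GRCm38. Pairs with ON plus OFF of at least 1 FPKM in at least 4 libraries entered limma 3.58.1 under R 4.3.3 (trend, two-sided, all 12 libraries in 1 model, pseudocount 1 FPKM, Benjamini-Hochberg over all pairs, adjusted p under 0.05), and genes likewise. The code was tested on simulated data.

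Named were, per comparison, called pairs and otherwise the 12 genes with the smallest p; the 10 genes with the highest levels; the 8 with most introns; the 8 pairs nearest 50% retention at 10 FPKM or more; and every tested pair of the splicing and decay lists, of which 1 is not reported here. The members, lists and alternatives were chosen with earlier results of these data known. Alternatives were other pseudocounts, filters, scales and scalings, the 2 groups alone, a replicate block, a smooth muscle covariate, leaving out libraries and, chosen after seeing the data, event-row values. The labels do not say whether the samples' numbers pair them.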

Additional observations from a re-analysis of the deposited data

Results flagged for a closer look

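Of 240 groups of 4 libraries examined for the pairs described, 25 held 1 library whose retention lay far from the other 3. The cut-off sets apart about 1 in 20 groups of independent, normally distributed values. Retention is bounded at 0 and 100%, and some pairs share transcripts, so that rate does not apply here and the 25 are only a description. Among pairs of the comparisons, Abhd11 was at 35.9% in control 3, against 5.65 to 7.86% in the other control libraries. Fn1 was at 35.8% in control 2, against 99.3 to 99.6%. Ccnl2 was at 100% in DSS 3, against 7.11 to 13.0%. Npas4 was at 0% in DSS 2, against 88.1 to 100%. Lrrc45 was at 69.9% in control 3, against 55.6 to 57.8%, and Sharpin at 58.1% in control 1, against 63.7 to 64.1%. Tbl1x was at 3.09% in DSS 1, against 1.38 to 1.56%. The short pair of Gas5 had such a library in each group: 5.02% in FGF1 4 (others 10.5 to 11.5%), 100% in DSS 1 (others 8.42 to 17.9%) and 20.3% in control 2 (others 90.2 to 100%). The long pair of Gas5 was at 1.53% in DSS 2, against 0.743 to 0.856%.

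Among the abundant and long runs, Eif4a1 was at 31.9% in FGF1 4, against 4.12 to 7.14% in the other FGF1 libraries. Cnbp was at 3.72% in FGF1 4 (others 1.25 to 1.62%) and at 8.05% in DSS 4 (others 1.26 to 1.73%). Its OFF form had 112.3, 86.88, 96.19 and 49.1 FPKM in the FGF1 libraries and 99.81, 104.4, 115.0 and 13.41 FPKM in the DSS libraries. Ssr4 was at 2.36% in DSS 2 (others 1.301 to 1.35%) and at 1.72% in control 3 (others 1.12 to 1.20%). Psme1 was at 3.26% in FGF1 1 (others 2.37 to 2.48%) and at 1.67% in DSS 1 (others 2.52 to 2.65%). Furin was at 3.82% in FGF1 3, against 1.55 to 1.56%, and Atp13a1 at 18.7% in FGF1 2, against 74.0 to 75.8%. Of the splicing genes, Clk2 was at 45.3% in control 4, against 57.1 to 57.9%, and Tia1 at 39.4% in control 3, against 2.80 to 6.86%. Prpf40b was at 43.3% in FGF1 4, against 1.99 to 6.68%, Prpf39 at 49.2% in control 4, against 95.9 to 100%, and Xrn1 at 8.95% in control 1, against 0.521 to 0.966%.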

How the results depend on the processing

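Of the values of 42 log2 odds changes of pairs (the 12 genes with the smallest p in each comparison and 6 others given with a test) under the alternatives, 1069 kept their direction and side of the threshold and 14 came to pass it, all named in the report. Of those of 10 gene-level changes, 162 kept both and 58 kept the direction but not the call. Of the retention means with an event-row value in every library of the group, 216 of 216 moved by less than the SD (an alternative chosen after seeing the data). Means where a library lacked such a value were not compared. Multiple-intron pairs called for DSS against control numbered 1 with retention in percent, with no filter, without a trend, without DSS 3 and DSS 4 and without control 3 and FGF1 3, and for FGF1 against DSS 1 with retention in percent, with the 2 groups alone and without DSS 3 and DSS 4; leaving out each library gave 0 to 1 in all 3 comparisons. The 32 calls over all pairs in DSS against control became 2 and 6 with pseudocounts of 0.1 and 0.5, 6 with retention in percent, 54 with no filter, 1 with a 5 FPKM minimum, 0 with both forms at 1 FPKM or both listed everywhere, 12 with the 2 groups alone, 49 without a trend, 0 with the smooth muscle covariate, 8 without DSS 3 and DSS 4, 7 without control 3 and FGF1 3, 9 from event rows and 0 to 49 leaving out each library (49 without DSS 1, 42 without FGF1 3, 20 or fewer without any other single library). The 0 calls over all pairs in FGF1 against DSS became 2, 1, 4 and 2 (pseudocounts of 0.1 and 0.5, percent, no filter), 16 with the 2 groups alone, 11 without DSS 3 and DSS 4, 1 from event rows and 0 to 6 leaving out each library; those in FGF1 against control became 1, 1, 2 and 2 in the same order, then 5, 3, 5 and 0 to 6, with 4 without control 3 and FGF1 3. Splicing list genes called in DSS against control were 14 with median-of-ratios scaling, 0 with the covariate, 1 without DSS 3 and DSS 4 and 3 to 14 leaving out each library; in FGF1 against DSS 0 to 0 and in FGF1 against control 0 to 1, with 1 for the 2 groups alone and 1 without DSS 3 and DSS 4. The group mean of the library median retention was 11.4% in FGF1, 10.7% in DSS and 10.7% in control at a 5 FPKM minimum. With summed FPKM in place of the median, the group mean was 19.5% in FGF1, 18.3% in DSS and 18.9% in control. The mean of the library medians was 13.9% in FGF1, 13.85% in DSS and 13.4% in control over pairs at 1 FPKM everywhere. Leaving out each library, it was 15.1 to 15.5% in FGF1, 14.2 to 16.1% in DSS and 13.9 to 15.7% in control. The median log2 odds change of the multiple-intron pairs in each fit (255 to 630 pairs) kept its sign in FGF1 against control (0.010 to 0.093). In DSS against control it turned negative over the 255 pairs with both forms at 1 FPKM (-0.045). For FGF1 against DSS it ranged from -0.040 to 0.057. In their deviations from the group means, same-numbered libraries had correlations of -0.068 to 0.0446 and differently numbered ones of -0.0548 to 0.0529. This gave no sign of pairing by number but cannot exclude it, and the labels do not say. With the replicate block 0 of the multiple-intron pairs and 0 of all pairs were called in any comparison, and 4 splicing list genes were called in DSS against control. The causes of these shifts were not tested. The files hold estimated FPKM without read counts, so the counting error of low pairs is unknown, and 104 of 630 pairs were not tested.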

Other observations

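By the Gene Ontology terms in the authors' deposited table, 47 of the 441 genes with a multiple-intron pair and 1 FPKM or more in at least 4 libraries carried RNA binding (10.7%, against 5.79% of all 12578 genes at that level). RNA splicing was carried by 19 of them (4.31%, against 1.9%) and mRNA processing by 21 (4.76%, against 2.49%). The nucleus was named for 181 (41.0%, against 34.9%). The shares for the mitochondrion were 11.6%, against 11.8%, and for the endoplasmic reticulum 9.07%, against 9.03%. The extracellular region had 3.85%, against 5.48%. These shares are descriptions, and the larger number of listed transcripts in the genes with a pair was not taken into account. Along the gene, the runs lay at a median of 59.2% of the distance from its start to its end.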
